A study of Mus musculus with 48 samples.

Results

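The genes of bile acid synthesis and hepatic bile acid transport were described as a set of 31, found by symbol among the 49315 genes of a mouse liver RNA-seq table. The rule for membership used gene names and no measured value, but the list was chosen with earlier results of these data known. Livers were collected after 12 weeks from C57BL/6J mice (an inbred strain) of either sex, kept on a diet low in fat (LFD) or high in fat (HFD). Each week mice on either diet were given vehicle or a mixture of TCDD (a chlorinated dioxin, 10 ng/kg), PeCDF (a chlorinated dibenzofuran, 80 ng/kg) and PCB126 (a chlorinated biphenyl, 140 ng/kg). Sex, diet and exposure made 8 groups of 6 livers, 48 in all: LFD vehicle, LFD mixture, HFD vehicle and HFD mixture in each sex. All groups shared strain and tissue, and poly(A) RNA of whole liver was measured. The sources used here do not give the age of the mice, the makeup of the diets or the vehicle. The labels name liver with no sorting of cells, and each library is labelled as a replicate of its group.

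Hepatocytes make bile acids from cholesterol, either by a classical route that begins at the steroid ring or by an acidic route that begins at the side chain. The products are conjugated to taurine or glycine, pumped into bile across the canalicular membrane, reabsorbed in the ileum and taken up again from portal blood across the basolateral membrane. Bile acids restrain their own synthesis: they activate the nuclear receptor FXR, which raises the repressor SHP in liver and the hormone FGF15 in ileum, and FGF15 acts on hepatocytes through the receptor pair FGFR4 and beta-Klotho. Several of these genes differ between the sexes in rodent liver, a pattern in part set by growth hormone.

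Values are TPM, a length-corrected share of all transcripts, and keep no record of sequencing depth, which is unknown here. Each library held 13180 to 14713 genes at 1 TPM or more. A sum of 6 skeletal muscle genes reached 14686 TPM in exposed HFD male replicate 6, 5678 TPM in LFD vehicle female replicate 3 and 1226 TPM in exposed LFD female replicate 3. That sum was at most 484 in the other 45 libraries, with a median of 21.3. This exposed female library also held 1619 TPM of 5 adrenal cortex genes, against at most 91.1 elsewhere. Alb, the most abundant of 6 hepatocyte marker genes, lay between 38082 and 117163 TPM, and Cyp1a2, a gene induced by dioxin-like compounds, separated all exposed from all vehicle livers of the same sex and diet. Fgf15, the ileal hormone, was at 0 in every library, and the ileal bile acid binding protein gene Fabp6 was at most 0.385 TPM. In whole liver, fewer cells of a type and less RNA per cell cannot be told apart.

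RefSeq promoter windows (the 250 bases before an annotated start, build GRCm38.p6) were found for 23 of the 31 genes, 28 windows in all. None was found for Cyp7a1, Cyp7b1, Cyp39a1, Amacr, Baat, Slc27a5, Atp8b1 and Abcc3. A set of 10 motifs was searched on both strands. The letters were AAGGTCA for the LRH-1 site, TTCNNNGAA for STAT5, CAAAGTCCA for an HNF4 core, GCGTG for the AhR core, TATAAA for a TATA box and AGATAA for GATA factors. The others were an LXR direct repeat, an FXR inverted repeat, an HNF4 direct repeat and an HNF1 palindrome, and none of these 4 was found in a member window. The LRH-1 site and the 3 repeats share the letters AGGTCA and can overlap.

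The following 4 sequences are examples in front of genes that differed by sex on both diets (Cyp8b1 and Slco1a1), a gene lower on the HFD in both sexes (Slc10a1), and a pair of members that start beside each other (Abcg5 and Abcg8). They read 5′ to 3′ toward the gene, and the last reads along the plus strand. Capitals mark motif matches. Akr1d1, Acox2, Scp2, Slco1a4, Abcb4 and Abcc4 also differed by sex on both diets and have windows that are not shown. Of these, Akr1d1, Acox2 and Slco1a4 held none of the motifs, and Scp2, Abcb4 and Abcc4 held only the AhR core. The window of Fgfr4, also lower on the HFD in both sexes, held only the AhR core. The examples thus do not show that a motif goes with a sex or diet difference. The Cyp8b1 window is chr9:121916306-121916555 (minus strand), the Slco1a1 window chr6:141946963-141947212 (minus strand), the Slc10a1 window chr12:80968706-80968955 (minus strand), and the stretch of 109 bases between the nearest Abcg5 and Abcg8 starts chr17:84683012-84683120.
Cyp8b1: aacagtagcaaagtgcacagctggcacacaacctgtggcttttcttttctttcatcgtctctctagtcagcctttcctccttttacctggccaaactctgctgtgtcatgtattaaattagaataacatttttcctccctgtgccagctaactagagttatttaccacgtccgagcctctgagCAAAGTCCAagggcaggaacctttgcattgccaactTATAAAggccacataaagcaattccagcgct
Slco1a1: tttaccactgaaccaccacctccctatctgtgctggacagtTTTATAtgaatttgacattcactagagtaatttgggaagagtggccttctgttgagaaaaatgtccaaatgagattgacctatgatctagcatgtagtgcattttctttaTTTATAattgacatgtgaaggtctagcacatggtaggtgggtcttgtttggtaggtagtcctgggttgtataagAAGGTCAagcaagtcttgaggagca
Slc10a1: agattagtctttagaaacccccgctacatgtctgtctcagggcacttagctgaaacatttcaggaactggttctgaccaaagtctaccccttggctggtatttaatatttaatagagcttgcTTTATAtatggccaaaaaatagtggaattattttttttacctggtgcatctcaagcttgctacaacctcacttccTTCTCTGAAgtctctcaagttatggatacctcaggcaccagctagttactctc
Abcg5-Abcg8: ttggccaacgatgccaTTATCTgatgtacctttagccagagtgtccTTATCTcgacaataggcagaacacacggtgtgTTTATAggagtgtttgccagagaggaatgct

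In the Cyp8b1 window CAAAGTCCA lies at -67 to -59 from the start and TATAAA at -31 to -26. In the Slco1a1 window AAGGTCA lies at -25 to -19, and the TATA letters are read on the other strand at -209 to -204 and at -99 to -94. In the Slc10a1 window shown the STAT5 letters read TTCTCTGAA at -53 to -45, with the TATA letters on the other strand at -128 to -123. A second Slc10a1 window (chr12:80968080-80968329, minus strand), not shown, held none of the motifs. Between Abcg5 and Abcg8 the GATA letters appear on the strand toward Abcg5 at bases 17 to 22 and 47 to 52, and the TATA letters on the same strand at bases 79 to 84. Of all 32817 windows of the same length, 0.384% hold the HNF4 core, 4.08% the LRH-1 site, 7.01% the STAT5 letters, 9.99% the GATA letters, 12.4% the TATA letters and 28.1% the AhR core. Among the 28 member windows the AhR core was found in 9, the TATA letters in 8, the STAT5 letters in 5, the GATA letters in 4, the LRH-1 site in 2 and the HNF4 core in 1. These are matches of letters, not binding sites.

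Of the 31 genes 30 reached the level needed for testing (1 TPM in at least 6 libraries). The exception was Slc51a, a subunit of a basolateral exporter, at 0 to 0.592 TPM and at 0 in 8 libraries. Differences below are log2 changes of TPM + 1 from a limma model of all 48 livers, called at an adjusted p under 0.05 over 15820 genes. In vehicle males 15 of 30 members were called between diets, 9 higher and 6 lower on the HFD, where 31.4% of all genes were called (25.6% higher and 5.82% lower). In vehicle females 18 were called, 10 higher and 8 lower, against 28.0% of all genes (14.4% higher and 13.5% lower). In mice given the mixture the diet called 17 members in males, 6 higher and 11 lower, against 38.6% of all genes (31.7% and 6.92%). Its count in exposed females was 13, with 10 higher and 3 lower, against 19.2% (11.5% and 7.74%). Between the sexes 16 members were called on the LFD, 9 higher in females and 7 lower, against 23.7% of all genes (17.1% and 6.61%). On the HFD 11 were called, 5 higher in females and 6 lower, against 11.8% (3.53% and 8.26%). The groups did not overlap for 11 members by diet in vehicle males (15.6% of all genes), 14 in vehicle females (11.0%), 9 in exposed males (15.2%) and 10 in exposed females (9.47%). By sex they did not overlap for 8 members on the LFD (9.59%) and 10 on the HFD (5.94%).

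The diet response itself was compared between the sexes. It differed for 9 members in vehicle mice, 4 with the higher change in females and 5 with the lower, against 18.2% of all genes (3.47% and 14.8%). In exposed mice it differed for 11 members, 8 and 3, against 17.0% (3.65% and 13.4%). In none of the 7 mixture comparisons was a member called. Exposed and vehicle groups share livers with the diet comparisons, so these counts are not independent of each other.

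In males the diet moved the median of all genes by 0.11 in vehicle and 0.15 in exposed livers, against -0.0077 and -0.00087 in females, so male changes are to be read against those shifts. For the difference of diet responses the median of all genes was -0.12 in vehicle and -0.15 in exposed mice. The median change of the members with diet was 0.08 in vehicle males, -0.09 in exposed males, -0.08 in vehicle females and 0.05 in exposed females. After a trimmed-mean scaling that removes them, the split of higher and lower members became 6 and 9 in vehicle males and 4 and 14 in exposed males. In exposed females it became 9 and 5, between the sexes on the LFD 8 and 9, and for the difference of diet responses 7 and 4 in vehicle and 12 and 1 in exposed mice. The scaling moved the split over all genes too, so these counts are not to be set against the unscaled shares above. The scaled split over all genes is given at the end of the report, except for exposed females. No called member changed sign under that scaling. The summed TPM of 6 hepatocyte markers moved with diet: its median was 114578 (range 96438 to 143316) in LFD and 77113 (73477 to 83650) in HFD vehicle males, with all 6 genes lower. In vehicle females it was 133724 (125065 to 150038) and 86045 (82797 to 94774), with 4 of 6 lower. The part of this shift in the diet results was not tested. Numbers in the library names, which the labels do not explain, run separately on each diet, with 11 numbers used on both. Thus diet and any cohort cannot be told apart.

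**Figure D1:**
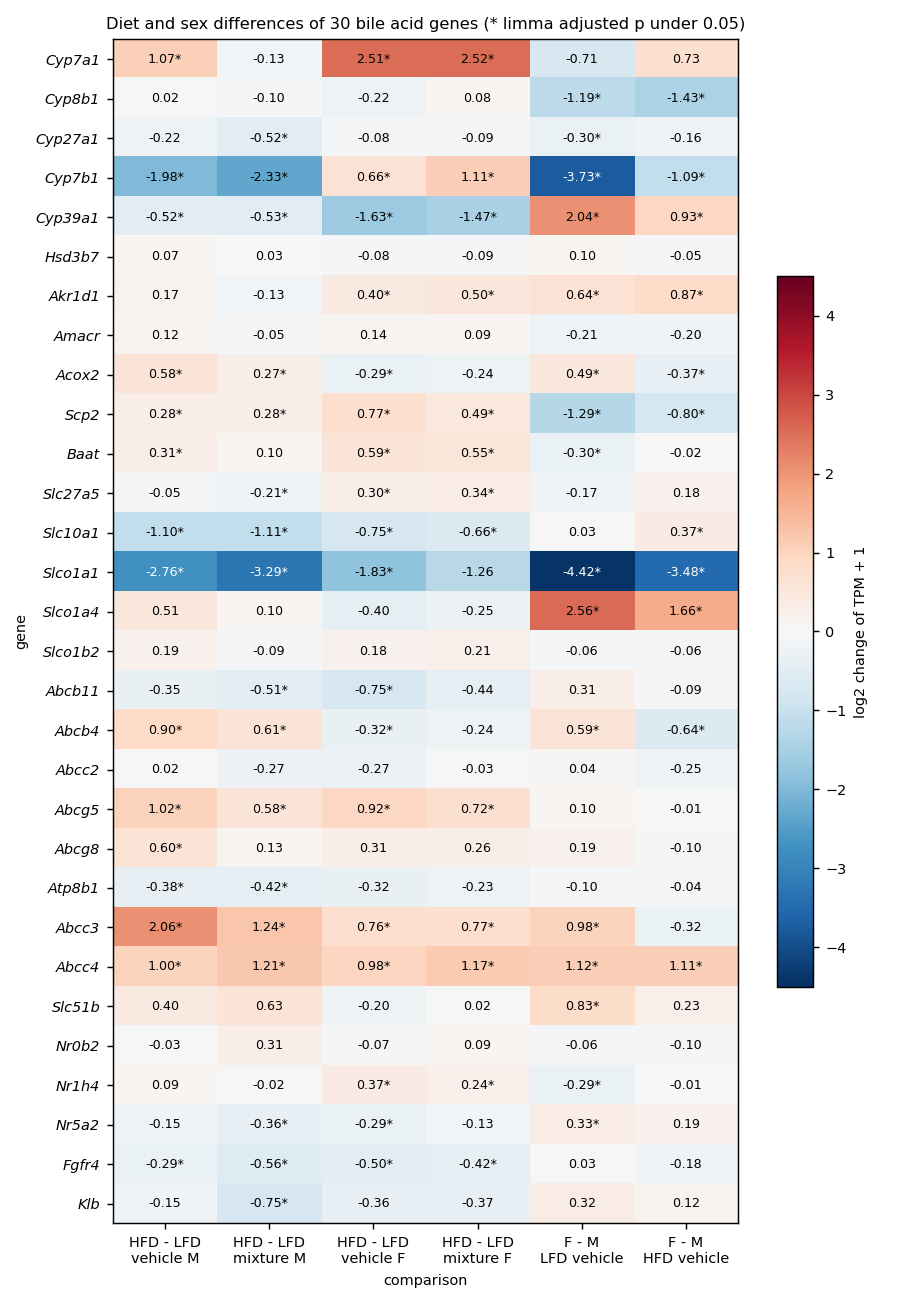
Log2 changes of TPM + 1 for the 30 tested genes (rows) in 4 diet and 2 sex comparisons (columns), with colour from blue (lower) to red (higher) and an asterisk for calls. Cyp7b1, Cyp39a1, Scp2 and Abcc4 are called in all 6 columns, and Slco1a1 holds the lowest values of both sex columns.

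Among the 7 genes grouped as ring steps, the largest diet changes were those of Cyp7a1 in females and of Cyp7b1 in males. Both genes encode 7-alpha-hydroxylases. Cyp7a1 (chr4:6265612-6275633, minus strand), the rate-limiting enzyme of the classical route, stood at 15.0 to 78.0 TPM (median 25.0) in LFD vehicle females and at 118 to 288 TPM (median 156) on the HFD, with no overlap. It was 5.7-fold higher on the HFD (log2 change 2.51, SE 0.35, adjusted p = 4.16e-07). Exposed females had 14.4 to 44.1 TPM (median 33.0) on the LFD and 143 to 236 TPM (median 178) on the HFD, again with every HFD liver above every LFD liver (log2 change 2.52, SE 0.35, adjusted p = 6.74e-07).

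In vehicle males Cyp7a1 read 31.2 to 66.0 TPM (median 58.5) on the LFD and 65.2 to 144 TPM (median 114) on the HFD, ranges that overlapped at their edges (log2 change 1.07, SE 0.35, adjusted p = 0.0157). The trimmed-mean scaling ended that call, with adjusted p from 0.00368 to 0.0549 over the alternatives. Exposed males were at 24.6 to 168 TPM (median 58.6) and 32.9 to 96.1 TPM (median 51.9), with no call (log2 change -0.13, SE 0.35, adjusted p = 0.809). The female change exceeded the male change by 1.44 in vehicle mice (SE 0.49, adjusted p = 0.0355) and by 2.65 in exposed mice (SE 0.49, adjusted p = 0.000176). Without a filter on low values the vehicle difference was not called (adjusted p = 0.0807, from 0.017 to 0.0807 over the alternatives). Between the sexes themselves Cyp7a1 was not called on either diet (female minus male -0.71 on the LFD, 0.73 on the HFD).

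Cyp7b1 (chr3:18071950-18243338, minus strand), the oxysterol 7-alpha-hydroxylase of the acidic route, moved in opposite directions in the 2 sexes. Vehicle males had 142 to 317 TPM (median 186) on the LFD and 33.4 to 94.1 TPM (median 47.3) on the HFD. Vehicle females had 12.1 to 20.0 TPM (median 13.5) on the LFD and 20.8 to 25.9 TPM (median 23.0) on the HFD. Neither pair of ranges overlapped, and the male fall (log2 change -1.98, SE 0.23, adjusted p = 7.15e-09) and the female rise (log2 change 0.66, SE 0.23, adjusted p = 0.0294) brought the sexes closer together. The female call was lost when low genes were not filtered out (adjusted p from 0.00108 to 0.0649 over the alternatives). Exposed mice gave a change of -2.33 in males (SE 0.23, adjusted p = 1.26e-10), while females gave 1.11 (SE 0.23, adjusted p = 0.000426). The diet responses differed by 2.64 in vehicle (SE 0.33, adjusted p = 3.83e-07) and 3.44 in exposed mice (SE 0.33, adjusted p = 1.47e-09). The female minus male difference was -3.73 on the LFD (SE 0.23, adjusted p = 3.14e-17) and -1.09 on the HFD (SE 0.23, adjusted p = 0.000928), with no overlap on either diet.

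Cyp39a1 (chr17:43667425-43751431, plus strand), which hydroxylates 24-hydroxycholesterol, showed the reverse sex difference. On the LFD it was at 11.6 to 19.9 TPM (median 16.5) in vehicle males and 61.2 to 87.0 TPM (median 68.0) in vehicle females, a separation of 2.04 (SE 0.20, adjusted p = 7.22e-11). On the HFD the ranges were 3.96 to 14.7 TPM (median 13.3) and 17.9 to 30.2 TPM (median 21.0), still apart (log2 change 0.93, SE 0.20, adjusted p = 0.00122). On the HFD Cyp39a1 was lower in females, without overlap in vehicle (log2 change -1.63, SE 0.20, adjusted p = 4.08e-08) and exposed mice (log2 change -1.47, SE 0.20, adjusted p = 6.54e-07). In males it was lower by less and with overlap, in vehicle (log2 change -0.52, SE 0.20, adjusted p = 0.0455) and exposed livers (log2 change -0.53, SE 0.20, adjusted p = 0.036). Both male calls were lost without the filter and in a fit of only the groups compared (adjusted p from 0.0162 to 0.137 and from 0.00716 to 0.0735 over the alternatives). The difference of responses was -1.11 in vehicle (SE 0.29, adjusted p = 0.0051) and -0.94 in exposed mice (SE 0.29, adjusted p = 0.0188), the latter lost after scaling (adjusted p = 0.0814, from 0.0145 to 0.0814 over the alternatives).

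Cyp8b1 (chr9:121914356-121916305, minus strand), the sterol 12-alpha-hydroxylase that decides how much cholic acid is made, separated the sexes and not the diets. LFD vehicle males had 239 to 533 TPM (median 345) and females 82.8 to 242 TPM (median 146), a narrow overlap (log2 change -1.19, SE 0.25, adjusted p = 0.000383). HFD vehicle males had 249 to 415 TPM (median 356) and females 108 to 190 TPM (median 116), with no overlap (log2 change -1.43, SE 0.25, adjusted p = 7.16e-05). Its diet changes lay between -0.22 and 0.08 in the 4 combinations of sex and exposure (strata), none called.

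Cyp27a1 starts the acidic route at the side chain, although it is counted here with the ring steps. It was abundant in all groups at 313 to 673 TPM. Its diet change in vehicle males was -0.22 with no call, and after scaling it was called lower there (log2 change -0.37, adjusted p = 0.017). Its ranges on the 2 diets did not overlap in exposed males, at 464 to 673 TPM (median 540) against 330 to 434 TPM (median 398) (log2 change -0.52, SE 0.10, adjusted p = 7.79e-05). Exposed females were at -0.09 with no call, and the difference of 0.44 between them (SE 0.15, adjusted p = 0.0329) was lost in 3 alternatives (adjusted p from 0.00901 to 0.0683): no filter, only the groups compared, and without the 3 muscle libraries. On the LFD it was lower in vehicle females, at 368 to 478 TPM (median 440) against 444 to 620 TPM (median 518) in males (log2 change -0.30, SE 0.10, adjusted p = 0.0283), a call lost without the filter (adjusted p from 0.00929 to 0.0594 over the alternatives).

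Akr1d1, the reductase that gives the ring its 5-beta shape, was higher in females on both diets. Vehicle females were at 179 to 204 TPM (median 188) on the LFD and 213 to 312 TPM (median 249) on the HFD, and vehicle males at 107 to 145 TPM (median 121) and 110 to 165 TPM (median 138). The sexes did not overlap on the LFD (log2 change 0.64, SE 0.10, adjusted p = 4.88e-06) or the HFD (log2 change 0.87, SE 0.10, adjusted p = 1.55e-08). It was higher on the HFD in females, in vehicle (log2 change 0.40, SE 0.10, adjusted p = 0.00239) and exposed livers (log2 change 0.50, SE 0.10, adjusted p = 0.000288), and it was not called in males (0.17 and -0.13). After scaling it was called lower on the HFD in exposed males (log2 change -0.33, adjusted p = 0.0112). The responses differed in exposed mice (difference 0.64, SE 0.14, adjusted p = 0.00161). Hsd3b7, which acts between the 7-hydroxylases and Akr1d1, lay at 6.87 to 16.6 TPM in all libraries and was called in no comparison.

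**Figure D2:**
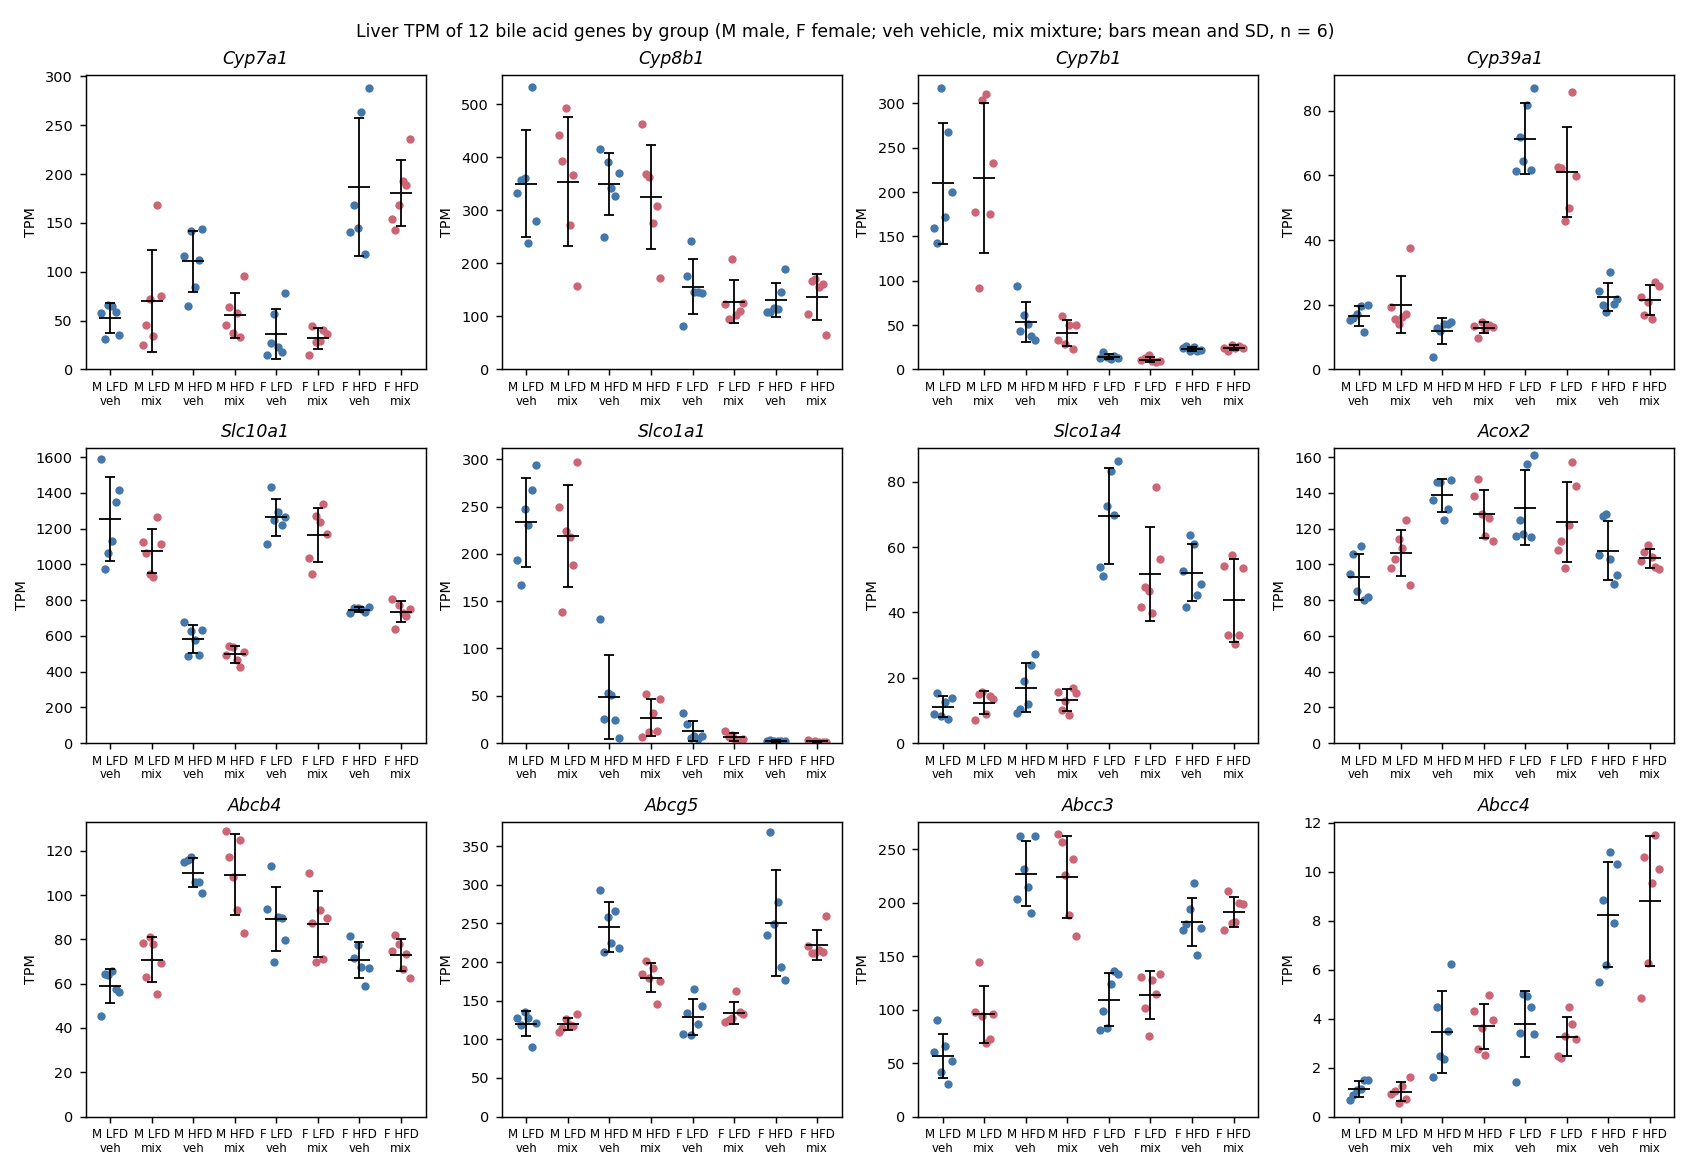
TPM of 12 of the genes in each of the 8 groups (points are livers, blue for vehicle and red for mixture; bars are mean and SD, n = 6, each panel with its own axis from 0). Cyp7b1 and Slco1a1 are highest in LFD males, Cyp39a1 in LFD females, Slco1a4 in LFD vehicle females, and Cyp7a1 in HFD females.

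Of the 5 side chain and conjugation genes, the HFD called 3 higher and 0 lower in vehicle males, where 25.6% of all genes were called higher, and 2 higher and 1 lower in exposed males (31.7% of all genes higher). In females it called 3 higher and 1 lower with vehicle (14.4% of all genes higher) and 3 higher and 0 lower with the mixture (11.5%). After trimmed-mean scaling the male counts were 1 higher (Acox2) and 0 lower with vehicle, and 0 higher and 1 lower (Slc27a5) with the mixture, while in females 3 were higher and 0 lower in each. The shares of all genes given before these scaled counts are unscaled. Scp2 (chr4:108043839-108144998, minus strand), whose long product is the thiolase of side-chain shortening, was the most abundant member of the set, at 896 to 3617 TPM. Vehicle males had 2626 to 2948 TPM (median 2754) on the LFD and 3167 to 3617 TPM (median 3367) on the HFD (log2 change 0.28, SE 0.08, adjusted p = 0.00746). Vehicle females had 896 to 1414 TPM (median 1182) and 1713 to 2249 TPM (median 1931) (log2 change 0.77, SE 0.08, adjusted p = 1.86e-09). Neither pair of ranges overlapped. After trimmed-mean scaling the male changes were 0.13 in vehicle and 0.08 in exposed livers, neither called (adjusted p from 0.000997 to 0.267 and from 0.000144 to 0.536 over the alternatives). Exposed males and females gave 0.28 (SE 0.08, adjusted p = 0.00769) and 0.49 (SE 0.08, adjusted p = 2.93e-05) before it.

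Scp2 also stood apart by sex: every vehicle female was below every vehicle male on the LFD (log2 change -1.29, SE 0.08, adjusted p = 1.32e-16) and on the HFD (log2 change -0.80, SE 0.08, adjusted p = 7.08e-10). Its diet response was larger in vehicle females by 0.49 (SE 0.12, adjusted p = 0.003). Part of the gene body is shared with Podn on the same strand in GENCODE M21, and the sources used here do not say how shared reads were counted.

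Acox2, the peroxisomal oxidase of the bile acid side chain, was called higher on the HFD in males and lower in vehicle females. Vehicle males had 80.2 to 110 TPM (median 89.8) on the LFD and 125 to 147 TPM (median 141) on the HFD, with no overlap (log2 change 0.58, SE 0.10, adjusted p = 2.43e-05). Vehicle females had 115 to 161 TPM (median 121) on the LFD and 89.0 to 128 TPM (median 104) on the HFD (log2 change -0.29, SE 0.10, adjusted p = 0.0323), a call lost after scaling, without the filter and with only the groups compared (adjusted p from 0.0186 to 0.0982 over the alternatives). Exposed males were higher on the HFD (log2 change 0.27, SE 0.10, adjusted p = 0.0344), with a scaled change of 0.07 that was not called, nor was the change without the filter (adjusted p from 0.0181 to 0.662 over the alternatives). Exposed females were at -0.24 with no call, and were called lower only without the 3 muscle libraries (log2 change -0.30, adjusted p = 0.0385). The sexes crossed in vehicle mice: females were above males on the LFD (log2 change 0.49, SE 0.10, adjusted p = 0.000314) and below them on the HFD (log2 change -0.37, SE 0.10, adjusted p = 0.0127). The HFD difference was lost after scaling (adjusted p from 0.00878 to 0.051 over the alternatives). Responses differed by -0.87 in vehicle (SE 0.15, adjusted p = 4.64e-05) and -0.51 in exposed mice (SE 0.15, adjusted p = 0.0127), the latter lost after scaling (adjusted p from 0.00366 to 0.186 over the alternatives).

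Baat conjugates bile acids to amino acids, and Slc27a5 prepares returning bile acids for it as a CoA ligase. Baat read 156 to 205 TPM (median 171) in LFD and 236 to 327 TPM (median 259) in HFD vehicle females (log2 change 0.59, SE 0.07, adjusted p = 5.23e-08). Vehicle males read 204 to 229 TPM (median 213) and 241 to 294 TPM (median 266) (log2 change 0.31, SE 0.07, adjusted p = 0.00121), and neither pair overlapped. The male call was lost after scaling (change 0.16, adjusted p from 0.000552 to 0.101 over the alternatives). In exposed mice Baat was higher on the HFD in females (log2 change 0.55, SE 0.07, adjusted p = 3.51e-07) and not called in males (0.10), a difference of 0.45 (SE 0.10, adjusted p = 0.00206). LFD vehicle females were below males (log2 change -0.30, SE 0.07, adjusted p = 0.00186).

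Slc27a5 was at 714 to 944 TPM (median 860) in LFD and 1002 to 1162 TPM (median 1018) in HFD vehicle females, with no overlap (log2 change 0.30, SE 0.07, adjusted p = 0.00142), and it was also higher on the HFD in exposed females (log2 change 0.34, SE 0.07, adjusted p = 0.000553). Exposed males were lower on the HFD, at 711 to 955 TPM (median 839) against 901 to 996 TPM (median 978) (log2 change -0.21, SE 0.07, adjusted p = 0.0209), which was lost with only the groups compared (adjusted p from 0.000227 to 0.0516 over the alternatives). Its diet responses differed between the sexes in vehicle (difference 0.35, SE 0.10, adjusted p = 0.0137) and exposed mice (difference 0.54, SE 0.10, adjusted p = 0.000191). Amacr, the racemase of the side chain, lay at 89.7 to 157 TPM and was called in no comparison before the trimmed-mean scaling. After scaling it was called lower in vehicle females than in males on the LFD (log2 change -0.32, adjusted p = 0.0189).

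Of the 4 basolateral uptake genes, Slc10a1 and Slco1a1 were lower on the HFD in both sexes. Slc10a1 (chr12:80953183-80968705, minus strand) encodes NTCP, the sodium-dependent uptake carrier for conjugated bile acids. Vehicle males had 975 to 1592 TPM (median 1238) on the LFD and 489 to 677 TPM (median 600) on the HFD. Vehicle females had 1115 to 1435 TPM (median 1256) and 730 to 759 TPM (median 751). All HFD livers were below all LFD livers of their sex, in vehicle and in exposed mice.

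The Slc10a1 change was -1.10 in vehicle males (SE 0.10, adjusted p = 4.46e-12) and -0.75 in vehicle females (SE 0.10, adjusted p = 6.7e-08). Exposed mice gave -1.11 in males (SE 0.10, adjusted p = 3.79e-12), while females gave -0.66 (SE 0.10, adjusted p = 1.69e-06). The exposed sexes differed in this response (difference 0.45, SE 0.14, adjusted p = 0.0165). The sexes were not called apart on the LFD (0.03), and HFD vehicle females were above every HFD vehicle male (log2 change 0.37, SE 0.10, adjusted p = 0.00682).

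Slco1a1 and Slco1a4 encode organic anion carriers and lie within the same cluster on chromosome 6 (chr6:141907282-141946962 and chr6:141805440-141856199, both minus strand), beside Slco1b2 (chr6:141629518-141686646, plus strand). They are related in sequence, and the sources used here do not say how reads shared between them were counted. LFD vehicle males had 167 to 294 TPM (median 239) of Slco1a1, the highest of the vehicle groups, and HFD vehicle males 5.26 to 131 TPM (median 38.2). LFD vehicle females had 4.12 to 31.8 TPM (median 7.37) and HFD vehicle females 1.61 to 3.27 TPM (median 1.86). Thus among vehicle mice the diets did not overlap in either sex, and no female reached a male on either diet.

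The diet change of Slco1a1 was -2.76 in vehicle males (SE 0.47, adjusted p = 1.12e-05), -1.83 in vehicle females (SE 0.47, adjusted p = 0.00279) and -3.29 in exposed males (SE 0.47, adjusted p = 3.93e-07). In exposed females it was -1.26 (SE 0.47, adjusted p = 0.053). That value passed in 3 of the 6 alternatives, with adjusted p from 0.0171 to 0.11. At such low levels the pseudocount shrinks the change. Female minus male it was -4.42 on the LFD (SE 0.47, adjusted p = 5.34e-10) and -3.48 on the HFD (SE 0.47, adjusted p = 4.65e-07). The responses of exposed males and females differed by 2.02 (SE 0.67, adjusted p = 0.0297), a call lost without the filter and with the smaller pseudocount (adjusted p from 0.0151 to 0.103 over the alternatives).

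Slco1a4 had the opposite sex difference. Vehicle males were at 7.41 to 15.2 TPM (median 10.8) on the LFD and 9.11 to 27.2 TPM (median 15.5) on the HFD, and vehicle females at 51.3 to 86.4 TPM (median 71.2) and 41.8 to 63.8 TPM (median 50.6). The sexes did not overlap on the LFD (log2 change 2.56, SE 0.23, adjusted p = 2.57e-12) or the HFD (log2 change 1.66, SE 0.23, adjusted p = 5.31e-07). Its diet changes were not called in any stratum. Their difference between vehicle males and females (difference -0.90, SE 0.32, adjusted p = 0.0422) was lost in 4 alternatives, with adjusted p from 0.028 to 0.115. Slco1b2, the main sinusoidal carrier for unconjugated bile acids in mice, lay at 390 to 718 TPM and was called in no comparison before the trimmed-mean scaling. After scaling it was called lower on the HFD in exposed males (log2 change -0.29, adjusted p = 0.00923). The exposed sexes then also differed in its diet response (difference 0.49, adjusted p = 0.0051).

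Kupffer cell markers moved with sex: the summed TPM of Clec4f, Vsig4 and Adgre1 had a median of 127 (range 89.2 to 235) in LFD vehicle males and 272 (187 to 434) in LFD vehicle females, with 3 of 3 genes higher. On the HFD the medians were 154 and 226, again with 3 of 3 higher in females. The sum of 3 endothelial markers had medians of 72.8 and 116 on the LFD, with 3 of 3 higher in females, and 88.3 and 83.1 on the HFD. Their part in the sex differences was not tested.

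**Figure D3:**
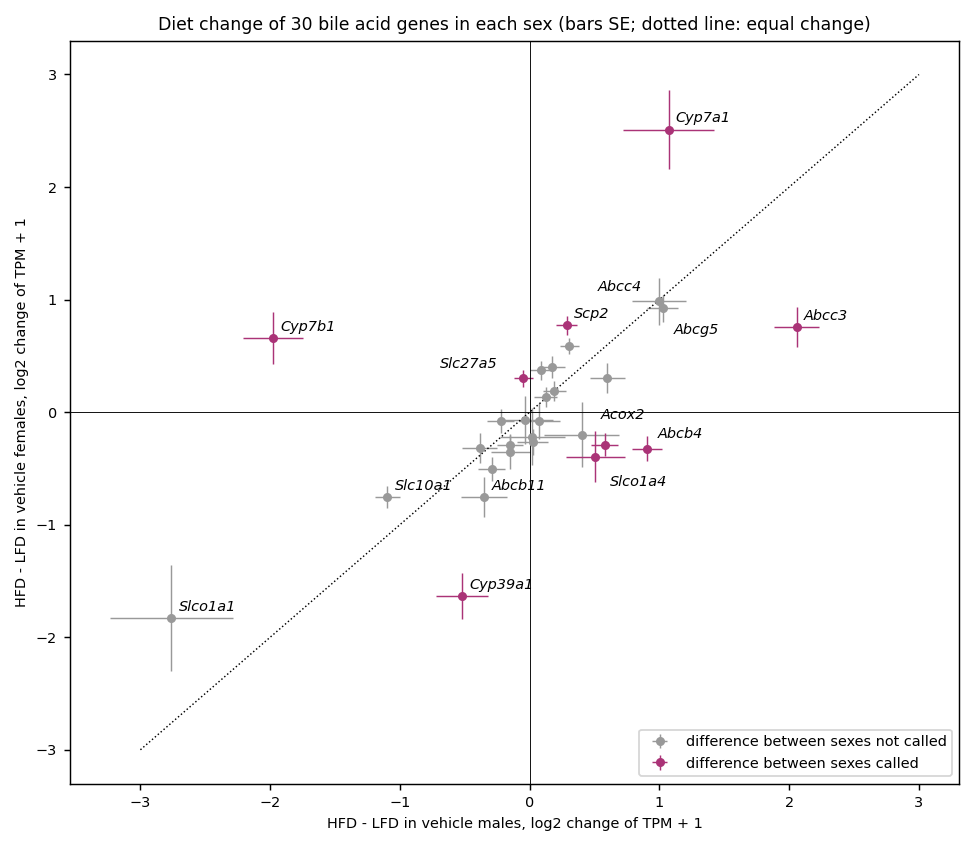
Diet change (HFD minus LFD, log2 of TPM + 1) in vehicle males (horizontal axis) and vehicle females (vertical axis) for the 30 tested genes, with SE bars and a dotted line of equal change. The 9 genes in purple differed between the sexes; Cyp7b1 lies far to the upper left at -1.98 and 0.66, and Abcb4 and Abcc3 lie to the lower right of the line.

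Canalicular exporters differed in direction. Abcb4 (chr5:8893717-8959231, plus strand), the phospholipid translocator that protects the biliary tree from bile salts, was higher on the HFD in males and lower in females. It stood at 45.5 to 65.8 TPM (median 60.6) in LFD and 101 to 117 TPM (median 111) in HFD vehicle males, with no overlap (log2 change 0.90, SE 0.11, adjusted p = 2.65e-08). Vehicle females had 69.6 to 113 TPM (median 89.8) and 59.1 to 81.5 TPM (median 69.7) (log2 change -0.32, SE 0.11, adjusted p = 0.0268), the latter call lost without the filter (adjusted p from 0.00433 to 0.0562 over the alternatives). The sexes changed places: females were above all males on the LFD (log2 change 0.59, SE 0.11, adjusted p = 8.97e-05) and below all males on the HFD (log2 change -0.64, SE 0.11, adjusted p = 6.53e-05). Exposed males repeated the rise without overlap (log2 change 0.61, SE 0.11, adjusted p = 2.63e-05), and exposed females were at -0.24 with no call. The responses differed in vehicle (difference -1.23, SE 0.16, adjusted p = 6.83e-07) and exposed mice (difference -0.85, SE 0.16, adjusted p = 0.000176).

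Abcg5 and Abcg8 encode the 2 subunits of the sterol exporter and are transcribed in opposite directions on chromosome 17 (chr17:84658234-84683011, minus strand, and chr17:84676302-84700333, plus strand). In GENCODE M21 their gene bodies overlap, and with an unknown strand setting reads in the shared part cannot be told apart. Vehicle males had 90.5 to 136 TPM (median 125) of Abcg5 on the LFD and 213 to 293 TPM (median 241) on the HFD. Vehicle females had 105 to 165 TPM (median 127) and 177 to 368 TPM (median 242). In both sexes all HFD livers were above all LFD livers.

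Abcg5 was higher on the HFD in vehicle males (log2 change 1.02, SE 0.12, adjusted p = 5.09e-09), vehicle females (log2 change 0.92, SE 0.12, adjusted p = 8.17e-08), exposed males (log2 change 0.58, SE 0.12, adjusted p = 0.000138) and exposed females (log2 change 0.72, SE 0.12, adjusted p = 1.3e-05). Abcg8 was called in vehicle males, at 79.3 to 120 TPM (median 110) on the LFD and 140 to 187 TPM (median 156) on the HFD with no overlap (log2 change 0.60, SE 0.13, adjusted p = 0.0005). In the other strata its change was 0.31, 0.13 and 0.26 (vehicle females, exposed males, exposed females), none called. Neither gene was called between the sexes.

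Abcb11 is BSEP, the bile salt export pump (chr2:69238282-69342616, minus strand). Vehicle females had 321 to 526 TPM (median 376) on the LFD and, with overlap, 169 to 409 TPM (median 217) on the HFD (log2 change -0.75, SE 0.18, adjusted p = 0.00114). Exposed males were lower on the HFD as well, at 155 to 242 TPM (median 198) against 235 to 390 TPM (median 276) (log2 change -0.51, SE 0.18, adjusted p = 0.0194). Vehicle males were at -0.35 and exposed females at -0.44, not called. After scaling Abcb11 was called lower in both of these, at -0.50 and -0.45. An antisense gene overlaps it in the annotation.

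Atp8b1, a phospholipid flippase of the canalicular membrane, was present at 9.47 to 20.9 TPM. Males had lower levels on the HFD, at 10.5 to 14.2 TPM (median 13.5) against 12.1 to 20.9 TPM (median 18.4) in vehicle (log2 change -0.38, SE 0.14, adjusted p = 0.0264) and in exposed livers (log2 change -0.42, SE 0.14, adjusted p = 0.0119). The vehicle male call was lost without the filter (adjusted p from 0.00179 to 0.0564 over the alternatives). Vehicle females had 13.8 to 18.0 TPM (median 16.1) on the LFD and 9.47 to 15.1 TPM (median 13.2) on the HFD. No diet change of Atp8b1 was called in females. The diet responses of the sexes were not called apart in vehicle (difference 0.06, SE 0.19, adjusted p = 0.867) or exposed mice (difference 0.19, SE 0.19, adjusted p = 0.547). Abcc2, which exports conjugated anions, lay at 139 to 304 TPM and was called in no comparison before the trimmed-mean scaling. In exposed males its diet change was -0.27 (SE 0.12, adjusted p = 0.0616), and after scaling it was called lower on the HFD (log2 change -0.47, adjusted p = 0.000676).

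Basolateral export genes return bile acids to blood, and both tested transporters of the ABC type were higher on the HFD in all 4 strata. Abcc3 (chr11:94343295-94392997, minus strand) had 30.0 to 90.1 TPM (median 55.8) in LFD and 190 to 262 TPM (median 223) in HFD vehicle males, a 4.16-fold difference without overlap (log2 change 2.06, SE 0.18, adjusted p = 2.45e-12). Vehicle females had 81.2 to 136 TPM (median 111) and 151 to 218 TPM (median 178), also apart (log2 change 0.76, SE 0.18, adjusted p = 0.000948). Female minus male, the vehicle response differed by -1.30 (SE 0.25, adjusted p = 0.000227). Exposed males (log2 change 1.24, SE 0.18, adjusted p = 2.73e-07) and exposed females (log2 change 0.77, SE 0.18, adjusted p = 0.00123) gave the same direction. LFD vehicle females were above LFD vehicle males (log2 change 0.98, SE 0.18, adjusted p = 3e-05), and on the HFD the sexes were not called apart (-0.32).

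Abcc4 (chr14:118482692-118706219, minus strand) was far less abundant, at 0.573 to 11.5 TPM. Its median went from 1.10 to 2.99 TPM in vehicle males and from 3.96 to 8.37 TPM in vehicle females, with no overlap of the diets in either sex. The log2 changes were 1.00 (SE 0.21, adjusted p = 0.00024) and 0.98 (SE 0.21, adjusted p = 0.000368). In exposed livers they were 1.21 (SE 0.21, adjusted p = 1.21e-05) for males and 1.17 for females (SE 0.21, adjusted p = 5.37e-05). Females were above males on the LFD (log2 change 1.12, SE 0.21, adjusted p = 6.61e-05) and the HFD (log2 change 1.11, SE 0.21, adjusted p = 0.000207). Since levels were near the pseudocount, these changes understate the ratio of TPM.

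Slc51a and Slc51b form a heteromeric exporter. Slc51b lay at 0 to 4.93 TPM and was called between the sexes on the LFD, with 0 to 1.63 TPM (median 1.15) in males and 0.981 to 4.33 TPM (median 2.76) in females (log2 change 0.83, SE 0.29, adjusted p = 0.0308). The call was lost without the filter and with only the groups compared (adjusted p from 0.00836 to 0.0833 over the alternatives). Both genes overlap a neighbour on the opposite strand, Pcyt1a for Slc51a and Rasl12 for Slc51b.

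Among the 5 regulators the called changes lay between -0.75 and 0.37. Fgfr4 (chr13:55152640-55168759, plus strand), the hepatocyte receptor for FGF15, was lower on the HFD in all 4 strata. It read 35.2 to 42.7 TPM (median 37.1) in LFD and 22.9 to 33.6 TPM (median 24.9) in HFD vehicle females, with no overlap (log2 change -0.50, SE 0.11, adjusted p = 0.000299), and 29.5 to 44.2 TPM (median 37.8) and 24.4 to 37.4 TPM (median 29.6) in vehicle males (log2 change -0.29, SE 0.11, adjusted p = 0.0291). The vehicle male call was lost without the filter and with only the groups compared (adjusted p from 0.00088 to 0.0604 over the alternatives). Exposed males (log2 change -0.56, SE 0.11, adjusted p = 3.65e-05) and exposed females (log2 change -0.42, SE 0.11, adjusted p = 0.00309) were called as well. Klb, which encodes its partner beta-Klotho, was lower on the HFD in exposed males, at 9.61 to 12.5 TPM (median 10.4) against 12.0 to 23.6 TPM (median 19.1) (log2 change -0.75, SE 0.15, adjusted p = 9.8e-05), and at -0.15 in vehicle males with no call. Vehicle females, not called, had 16.9 to 32.5 TPM (median 20.3) on the LFD and 11.4 to 21.9 TPM (median 15.7) on the HFD. Exposed females were at -0.37, called only after scaling (adjusted p = 0.0494) and with only the groups compared (adjusted p = 0.0486). The exposed sexes were not called apart in this response (difference 0.38, SE 0.21, adjusted p = 0.228).

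Nr1h4 encodes FXR, the bile acid receptor. Vehicle females had 103 to 125 TPM (median 114) on the LFD and 132 to 160 TPM (median 150) on the HFD, with no overlap (log2 change 0.37, SE 0.09, adjusted p = 0.000921). In exposed females the change was 0.24 (SE 0.09, adjusted p = 0.0391), lost in 4 alternatives (adjusted p from 0.0148 to 0.115). On the LFD it was lower in vehicle females than in males (log2 change -0.29, SE 0.09, adjusted p = 0.00953). Nr5a2, which encodes LRH-1, an activator of Cyp7a1 and Cyp8b1, was lower on the HFD in vehicle females (log2 change -0.29, SE 0.10, adjusted p = 0.0242) and exposed males (log2 change -0.36, SE 0.10, adjusted p = 0.00331) and higher in females on the LFD (log2 change 0.33, SE 0.10, adjusted p = 0.0123). Its vehicle female levels were 36.8 to 43.6 TPM (median 40.2) and 25.0 to 39.9 TPM (median 33.4), and its exposed male levels 27.2 to 36.8 TPM (median 31.4) and 22.2 to 27.5 TPM (median 24.2), on the LFD and HFD in turn. The first Nr5a2 call was lost with only the groups compared (adjusted p from 0.0161 to 0.0714 over the alternatives) and the sex call after scaling (adjusted p from 0.00884 to 0.077 over the alternatives). Nr0b2, which encodes the repressor SHP, lay at 54.0 to 177 TPM and was called in no comparison, its diet changes lying between -0.07 and 0.31.

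The weekly mixture was the exposure under study, and its effect on the set was tested in each sex and diet. Exposure was visible in every stratum: Cyp1a1 was at 1.73 ± 0.347 TPM in vehicle and 139 ± 51.9 TPM in exposed LFD males (SD, n = 6), and at 0.846 ± 0.260 TPM and 4.66 ± 2.47 TPM on the HFD. In females it was at 1.79 ± 0.474 TPM and 84.8 ± 17.7 TPM on the LFD and at 0.862 ± 0.272 TPM and 3.28 ± 1.02 TPM on the HFD. None of 30 members was called by limma in LFD males, where 0.0379% of all genes were called, in HFD males (0.0948%), in LFD females (0.0379%) or in HFD females (0.0126%). The mean over the 4 strata called no member either (0.0948% of all genes), nor did the comparison of its effect between diets in either sex (0.00632% each). At an unadjusted p under 0.05 the counts of 30 were 3 in LFD males (5.25% of all genes), 12 in HFD males (9.39%), 2 in LFD females (9.5%), 0 in HFD females (4.24%) and 7 for the mean (11.7%). For the difference between diets they were 9 in males (7.32%) and 1 in females (4.64%). The 95% interval lay within a 2-fold change either way for 28, 28, 29 and 29 of 30 members in the 4 strata, in the order LFD males, HFD males, LFD females and HFD females.

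In HFD males 25 of 30 members had a lower mean with the mixture, with a median change of -0.20 against 0.031 for all genes. Without the 3 libraries with muscle RNA the count was 21 of 30, with the same rounded median of -0.20, and the means of Cyp8b1, Scp2, Abcb4 and Abcc3 were then higher with the mixture. The largest change was that of Cyp7a1, at 65.2 to 144 TPM (median 114) with vehicle and 32.9 to 96.1 TPM (median 51.9) with the mixture (log2 change -1.02, SE 0.35, adjusted p = 0.34). Its adjusted p ran from 0.147 to 0.426 over the alternatives. Abcg5 was at 213 to 293 TPM (median 241) with vehicle and 146 to 201 TPM (median 182) with the mixture (log2 change -0.45, SE 0.12, adjusted p = 0.144). Klb was at 13.1 to 16.1 TPM (median 15.1) and 9.61 to 12.5 TPM (median 10.4) in the same order (log2 change -0.47, SE 0.15, adjusted p = 0.281). Abcg5 and Klb were the members whose groups did not overlap, 2 of 30, where 0.518% of all genes did not. Abcg8 was at 140 to 187 TPM (median 156) and 98.9 to 148 TPM (median 115) (log2 change -0.46, SE 0.13, adjusted p = 0.206). Without those 3 libraries, of which 1 is in this exposed group, the change was -1.19 for Cyp7a1, -0.44 for Abcg5, -0.46 for Klb and -0.45 for Abcg8. The summed TPM of 6 cholangiocyte markers was 9.96 to 20.6 (median 13.3) with vehicle and 14.5 to 32.4 (median 25.1) with the mixture in these males, with 6 of 6 genes higher and none at 0. The medians of 3 stellate cell markers were 27.1 and 35.0 TPM, with 3 of 3 higher. The part of these cells in the values was not tested.

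In LFD males Abcc3 had the smallest p of the set: it was at 30.0 to 90.1 TPM (median 55.8) with vehicle and 69.1 to 144 TPM (median 95.1) with the mixture, and all 6 exposed livers lay above the vehicle mean (log2 change 0.78, SE 0.18, adjusted p = 0.106). Its adjusted p ran from 0.0524 to 0.977 over the alternatives, the highest in the fit of only these groups. Abcb4 (log2 change 0.26, SE 0.11, adjusted p = 0.936), Slc10a1 (log2 change -0.21, SE 0.10, adjusted p = 0.936) and Acox2 (log2 change 0.19, SE 0.10, adjusted p = 0.975) followed. On the HFD Abcc3 was at -0.03, and the difference of the mixture effects was -0.81 (SE 0.25, adjusted p = 0.393). The same difference was -0.60 for Klb (adjusted p = 0.494), -0.45 for Abcg5 (adjusted p = 0.512) and -0.47 for Abcg8 (adjusted p = 0.538), none called.

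In LFD females the members with the smallest p were Abcc2 (log2 change -0.25, SE 0.12, adjusted p = 0.499), Nr1h4 (log2 change 0.18, SE 0.09, adjusted p = 0.523), Scp2 (log2 change 0.16, SE 0.08, adjusted p = 0.538) and Slco1a4 (log2 change -0.43, SE 0.23, adjusted p = 0.552). HFD females showed the least change, with Fgfr4 at 0.15, Scp2 at -0.12, Nr0b2 at 0.27 and Slco1b2 at -0.11 the smallest in p, each with an adjusted p of 1. Between the diets the mixture effect in females differed by -0.29 for Scp2, 0.24 for Abcc2, 0.45 for Cyp7b1 and 0.31 for Abcb11, also at an adjusted p of 1. Averaged over the 4 strata, Slc10a1 (log2 change -0.15, SE 0.05, adjusted p = 0.232), Abcg8 (log2 change -0.18, SE 0.07, adjusted p = 0.284), Abcc3 (log2 change 0.22, SE 0.09, adjusted p = 0.314) and Atp8b1 (log2 change -0.17, SE 0.07, adjusted p = 0.314) came first.

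**Figure D4:**
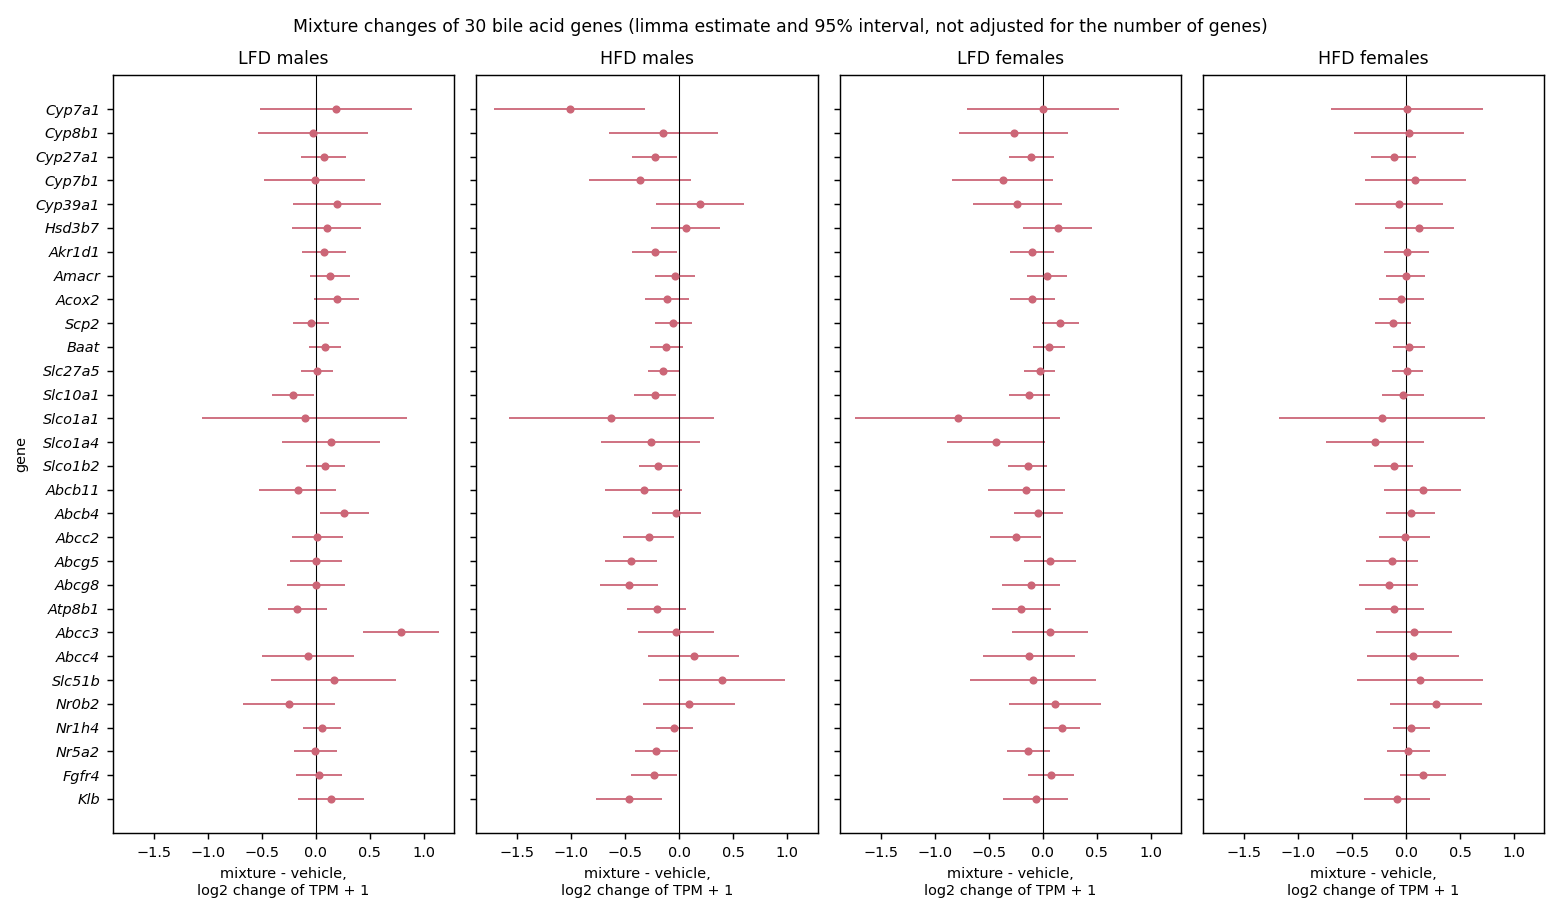
Mixture minus vehicle change (log2 of TPM + 1, points) with 95% intervals (bars, not adjusted for the number of genes) for the 30 tested genes in each sex and diet. Intervals clear of 0 are most frequent in HFD males, where 25 of 30 points lie below 0, and Abcc3 stands to the right in LFD males.

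How members vary between libraries of the same group was described with 8 pairs over 48 livers, after group means were removed from log2(TPM + 1). P-values came from 100000 permutations within groups, two-sided, adjusted over the 8 pairs. Abcg5 and Abcg8 varied together (Pearson r = 0.881, Spearman rho = 0.835, unadjusted permutation p = 1e-05 for each, the smallest these permutations can give, and adjusted p = 8e-05). Without the 2 livers farthest from the median of Abcg5, r was 0.841. Their overlapping gene bodies mean that shared reads may enter both.

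Cyp7a1 and Nr0b2, the gene of its repressor SHP, varied in opposite directions (r = -0.488, permutation p = 0.0017, adjusted p = 0.0048; rho = -0.452, permutation p = 0.0039, adjusted p = 0.01), with r = -0.437 without the 2 farthest livers. Abcb11 and Nr0b2, both activated by FXR, varied in the same direction (r = 0.486, permutation p = 0.0018, adjusted p = 0.0048; rho = 0.497, permutation p = 0.0011, adjusted p = 0.0043), with r = 0.451 without the farthest livers. Slco1a1 and Slco1a4 gave r = -0.461 (permutation p = 0.0054, adjusted p = 0.011; rho = -0.371, permutation p = 0.02, adjusted p = 0.041), and r was -0.302 without 2 HFD vehicle males, the farthest from the median. Cyp7a1 and Cyp8b1 did not pass (r = 0.024, adjusted permutation p = 0.89; rho = 0.024). Cyp7a1 with Cyp7b1 (r = 0.179, rho = 0.194), Abcc3 with Abcc4 (r = 0.168, rho = 0.253) and Slc51a with Slc51b (r = 0.107, rho = 0.087) did not pass either, with adjusted permutation p from 0.14 to 0.68.

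**Figure D5:**
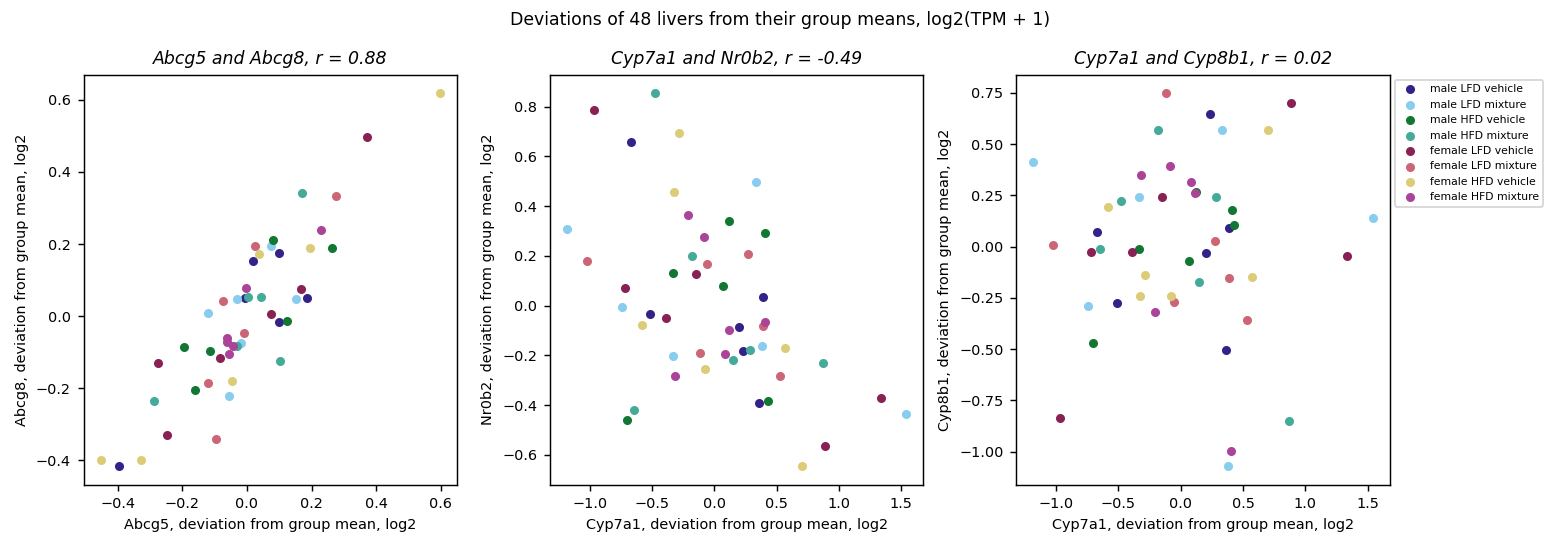
Deviation of each of the 48 livers from its group mean (log2 of TPM + 1, colours are the 8 groups) for Abcg5 and Abcg8, Cyp7a1 and Nr0b2, and Cyp7a1 and Cyp8b1. The points rise together in the first panel (r = 0.88), fall in the second (r = -0.49) and show no slope in the third (r = 0.02).

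A further list of 28 genes of the same pathways, chosen by function and not members of the set, had 25 tested. The diet called 12 of 25 in vehicle males (9 higher, 3 lower), where 31.4% of all genes were called, and 12 in vehicle females (10 and 2), where 28.0% were. It called 13 in exposed males (7 and 6), where 38.6% of all genes were called, and 10 in exposed females (9 and 1), where 19.2% were. Higher on the HFD in all 4 strata were the bile acid hydroxylase gene Cyp2a12, the drug exporters Abcb1a and Abcg2, the epoxide hydrolase gene Ephx1, the peroxisomal gene Hsd17b4, the apical sodium-dependent carrier gene Slc10a2 and the acyl-CoA synthetase gene Slc27a2. Slc10a2 had a mean of 15.5 and 24.3 TPM in LFD and HFD vehicle males (log2 change 0.61, SE 0.22, adjusted p = 0.0286) and of 5.96 and 15.9 TPM in vehicle females (log2 change 1.24, SE 0.22, adjusted p = 2.71e-05). The 5 ileal marker genes, which include Slc10a2 and Fabp2, had a median sum of 208 and 483 TPM in LFD and HFD vehicle males, with Fgf15 at 0. Hnf4a, which encodes a hepatocyte transcription factor with targets among the synthesis genes, was lower on the HFD in all 4, with a change of -0.33 in vehicle males (adjusted p = 0.033) and -0.67 in vehicle females (adjusted p = 3.23e-05).

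Cyp2c70, which makes the muricholic acids of mice, was called lower on the HFD in exposed males (log2 change -0.46, SE 0.18, adjusted p = 0.0332) and higher in HFD vehicle females than males (log2 change 0.55, SE 0.18, adjusted p = 0.033). Between the sexes 11 of 25 were called on the LFD (7 higher in females, 4 lower), where 23.7% of all genes were called, and 7 on the HFD (4 and 3), where 11.8% were. The diet responses differed between the sexes for 3 of 25 genes in vehicle mice (18.2% of all genes) and 3 in exposed mice (17.0%). No gene of this list was called in a mixture comparison, and the unadjusted p under 0.05 was reached by 3, 7, 2 and 0 of 25 in LFD males, HFD males, LFD females and HFD females, where 5.25%, 9.39%, 9.5% and 4.24% of all genes reached it.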

How the data were processed

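Poly(A) RNA of 48 livers was sequenced, and 1 table of TPM values was deposited by the authors for all libraries. The submitters' processing notes name STAR 2.5.2b, Trimmomatic 0.36, FastQC and DESeq2, with build GRCm38. Annotation, read counter and strand setting: not given in the sources used here. TPM cannot enter a count test. Each library sums to 1000000 TPM, so depth and counting error are unknown.

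From these values log2(TPM + 1) was computed and fitted in R 4.3.3 by limma 3.58.1 (empirical Bayes with an intensity trend), with 1 mean per group and 40 residual degrees of freedom. Genes at 1 TPM or more in at least 6 libraries were tested (15820 of 49315). P-values were two-sided and adjusted by Benjamini-Hochberg within each of 15 comparisons, with a threshold of 0.05. Fold changes are on the log2(TPM + 1) scale and understate the change of low genes. On simulated data for the diet comparison in vehicle males (15820 genes, 200 of them changed), 62.7% of 1.5-fold, 88.1% of 2-fold and 87.9% of 4-fold changes were recovered, with 7 false calls. The real comparison called 31.4% of genes, a far larger share, so these figures do not carry over to it. No other comparison was simulated.

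Members are named where called in a diet, sex or diet-by-sex comparison, and in a mixture comparison where among the 4 with the smallest p. The members and lists were chosen with earlier results of these data known. Labels do not say that libraries come from separate mice, so p-values measure the spread between libraries. No 2 libraries were alike beyond a correlation of 0.9835. Alternatives were a trimmed-mean scaling (each tail losing 30% by log ratio and 5% by abundance), no filter, a pseudocount of 0.1, only the groups compared, a replicate block, and leaving out 3 libraries with muscle RNA. Coordinates are from GENCODE M21 (GRCm38) and promoter windows from RefSeq (GRCm38.p6). 1 gene of the further pathway list is not reported here.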

Additional observations from a re-analysis of the deposited data

Results flagged for a closer look

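In 18 of 248 combinations of gene and group 1 liver stood apart from the other 5 by Dixon's test, where chance gives about 5%. Exposed LFD male replicate 6 was highest for Cyp39a1 (37.6 TPM), Abcc2 (304 TPM) and Nr1h4 (203 TPM); this library also had an adrenal cortex gene sum of 91.1 TPM. LFD vehicle male replicate 5 was lowest for both Abcg5 (90.5 TPM) and Abcg8 (79.3 TPM), whose annotations overlap. Abcg5 also had an apart value in exposed LFD females (replicate 4, 162 TPM) and in exposed HFD females (replicate 6, 260.0 TPM), and in the latter library Hsd3b7 stood at 8.47 TPM. The library with the most muscle RNA, exposed HFD male replicate 6, was apart for Scp2 (2561 TPM). The LFD female library with muscle and adrenal RNA, exposed replicate 3, was apart for Cyp8b1 (208 TPM).

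Among HFD vehicle livers the apart values were Cyp39a1 in male replicate 1 (3.96 TPM), Nr1h4 in male replicate 6 (169 TPM), Baat in female replicate 1 (327 TPM) and Slc27a5 in female replicate 4 (1162 TPM). Among LFD vehicle females they were Abcc4 in replicate 1 (1.42 TPM) and Klb in replicate 2 (32.5 TPM). Slc51a, which was not tested, stood apart in LFD mixture male replicate 3 (0.446 TPM) and LFD mixture female replicate 4 (0 TPM).

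The diet response differed between the sexes by the limma interaction in vehicle mice for 9 members, given as the female minus the male log2 change. It was 2.64 for Cyp7b1, 1.44 for Cyp7a1, 0.49 for Scp2 and 0.35 for Slc27a5, and it was -1.30 for Abcc3, -1.23 for Abcb4, -1.11 for Cyp39a1, -0.90 for Slco1a4 and -0.87 for Acox2. In exposed mice it differed for 11 members. The higher values were 3.44 for Cyp7b1, 2.65 for Cyp7a1, 2.02 for Slco1a1, 0.64 for Akr1d1, 0.54 for Slc27a5, 0.45 for Baat, 0.45 for Slc10a1 and 0.44 for Cyp27a1. The lower ones were -0.94 for Cyp39a1, -0.85 for Abcb4 and -0.51 for Acox2.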

How the results depend on the processing

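Of 110 member calls over the diet, sex and diet-by-sex comparisons, 85 held under all 6 alternatives, and no call changed sign. Calls lost numbered 15 without a filter, where more genes were tested, 12 after trimmed-mean scaling, 10 with only the groups compared, 3 without the 3 muscle libraries and 1 with a pseudocount of 0.1. Calls were also gained, besides those given with the genes above. Scaling added Nr5a2 (lower on the HFD) in vehicle males and Slc27a5 (lower in females) on the LFD. For diet by sex it added Baat, Slc10a1 and Nr1h4 in vehicle mice and Scp2, Nr1h4 and Nr5a2 in exposed mice. Without the muscle libraries, Abcb4 was called lower on the HFD in exposed females and Slc51b higher in exposed males. The lower members in vehicle males went from 6 to 3 without a filter and to 4 with only the groups compared. In exposed females they went from 3 to 5 after scaling, with only the groups compared and without the muscle libraries. Deviations of same-numbered libraries had a median correlation of 0.013 over 168 pairs (from -0.2072 to 0.4385), against -0.0050 for other numbers. Of 48 libraries 14 correlated best with their own number, and the count that chance would give was not computed. Whether replicate numbers pair the libraries cannot be told from these values. The replicate block lost 0 of the 110 calls and gained 5, so that exposed females had 5 lower members instead of 3 and the vehicle diet-by-sex count of higher members went from 4 to 6. No member was called in a mixture comparison under any alternative. Over all genes, the mixture called 15 in HFD males, 1 with only the groups compared and 47 without the muscle libraries. The mean over strata called 15 and, after scaling, 8. The LFD female count went from 6 to 3 after scaling and the HFD female count from 2 to 4 without the muscle libraries. The difference between diets in males went from 1 to 12 without the muscle libraries, 4 with the block and 2 without a filter. Over all genes, scaling moved the split of higher and lower calls from 4043 and 920 to 2068 and 1825 in vehicle males, and from 5010 and 1095 to 2463 and 2554 in exposed males. Between the sexes on the LFD it moved from 2707 and 1045 to 1641 and 1795, and for diet by sex from 549 and 2338 to 1031 and 1069 in vehicle and from 578 and 2116 to 1152 and 903 in exposed mice. The cause of these changes was not tested. Depth is unknown, and the changes of genes near 1 TPM (Slco1a1 in females, Abcc4, Slc51b) depend on the pseudocount.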
